A study of Homo sapiens with 6 samples.

Results

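The centromeric peaks of chromosomes 11 and 17 were all consensus peaks of nascent DNA whose midpoint lay in the hg38 intervals from 50.3 to 54.5 Mb of chromosome 11 or from 21.7 to 27.0 Mb of chromosome 17. They numbered 270 of the 18840 peaks in both consensus lists, 163 of 8555 in the ERCC6L2−/− list and 107 of 10285 in the control list. The cells were U2OS, a human osteosarcoma line, either control (wild type) or ERCC6L2−/−, with 3 samples of each genotype, all given a pulse of BrdU over 2 h. BrdU stands in for thymidine in DNA made during the pulse, and an antibody to it pulls that DNA down for sequencing. Mutant cells had been made with CRISPR/Cas9 and grown from single cells. The sources used here do not say which clone was sequenced, so genotype and clone cannot be told apart. Each list merges the peaks of the 3 samples of a genotype. There was thus 1 list per genotype and no spread between samples, and no test of the genotypes was possible. Intervals given below are 95% Wilson intervals that cover counting error only. Because the lists hold no counts, sequencing depth could not be stated. The comparison asked where newly made DNA was found at centromeres with and without ERCC6L2, an ATPase of the SNF2 family.

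Human centromeres lie on alpha-satellite, a DNA monomer of about 171 bases repeated head to tail. On each chromosome a block of several diverged monomers, the higher-order repeat, is itself repeated with few differences over megabases. Chromosomes 1, 11, 17 and X carry higher-order repeats of one family, built from an ancestral block of 5 monomers. Many monomers hold the CENP-B box, a short motif bound by the centromere protein CENP-B. In hg38 these arrays are models put together from sequencing reads, and the order of repeat copies in them need not be the order on a chromosome.

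The sequence of the windows was checked against their description as alpha-satellite of this family. On chromosome 11 a single array of 3.35 Mb (hg38 chr11:51078001-54425000) held all 143 peaks of the window. Its sequence matched itself best at a distance of 850 bases, or 5 monomers, in 296 of 319 stretches of 10 kb, with a median identity of 79.4% there. On chromosome 17 the array covered 3.90 Mb (chr17:22814001-26717000) and repeated less regularly. A distance of 2203 bases was best in 90 of 374 stretches and 2716 or 2715 bases in 54 and 52. The array of chromosome 17 held only 29 of the 67 ERCC6L2−/− peaks of its window and 25 of the 60 control peaks. The other 38 and 35 lay beside the array. In each list 19 of these were in DNA that repeated every 5 bases, 3 were in short stretches of alpha-satellite, and the rest, 16 and 13, were in other sequence. Most chromosome 17 peaks of the window were therefore not in alpha-satellite, and the array and its flanks are described separately.

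The central 300 bases of 6 peaks show what these regions are made of. For each chromosome the peak with the highest score was taken among unique ERCC6L2−/−, unique control and, from the ERCC6L2−/− list, shared peaks, the score being the −log10 p-value of the merged peak, with ties at the top of the scale broken by width. Capitals in the second sequence mark a CENP-B box, which the central bases of the other alpha-satellite peaks did not include, and those in the last mark copies of its commonest 5-base word. All are the plus strand of hg38. The first was unique to ERCC6L2−/− cells on chromosome 11 (chr11:51446986-51447285), the second unique to control cells (chr11:54182864-54183163) and the third shared (chr11:52538956-52539255). The fourth was unique to ERCC6L2−/− cells on chromosome 17 (chr17:23804793-23805092), the fifth unique to control cells and outside the array (chr17:22272066-22272365), and the sixth shared and outside the array (chr17:21893268-21893567).
Chromosome 11, ERCC6L2−/− only: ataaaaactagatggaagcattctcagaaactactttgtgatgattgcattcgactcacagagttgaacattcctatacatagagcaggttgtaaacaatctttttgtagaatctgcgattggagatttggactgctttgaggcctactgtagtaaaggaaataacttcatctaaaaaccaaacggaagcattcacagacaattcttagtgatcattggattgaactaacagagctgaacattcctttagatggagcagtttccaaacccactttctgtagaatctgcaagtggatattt
Chromosome 11, control only: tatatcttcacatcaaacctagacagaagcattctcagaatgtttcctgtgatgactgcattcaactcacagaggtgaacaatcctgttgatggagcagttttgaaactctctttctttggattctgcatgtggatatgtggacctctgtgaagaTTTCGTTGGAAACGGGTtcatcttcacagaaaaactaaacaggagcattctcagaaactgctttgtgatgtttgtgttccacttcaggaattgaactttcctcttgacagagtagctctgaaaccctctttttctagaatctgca
Chromosome 11, shared: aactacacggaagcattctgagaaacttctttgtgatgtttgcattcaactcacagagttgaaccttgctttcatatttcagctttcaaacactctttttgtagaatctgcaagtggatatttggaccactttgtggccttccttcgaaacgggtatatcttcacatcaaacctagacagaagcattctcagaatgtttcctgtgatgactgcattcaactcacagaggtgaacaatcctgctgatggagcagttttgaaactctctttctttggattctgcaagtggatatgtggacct
Chromosome 17, ERCC6L2−/− only: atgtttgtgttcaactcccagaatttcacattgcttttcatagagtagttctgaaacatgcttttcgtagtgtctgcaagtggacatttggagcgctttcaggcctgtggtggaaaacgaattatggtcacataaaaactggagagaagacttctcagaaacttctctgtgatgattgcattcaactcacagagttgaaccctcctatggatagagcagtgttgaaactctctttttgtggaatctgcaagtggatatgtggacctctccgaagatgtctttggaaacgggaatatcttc
Chromosome 17, control only: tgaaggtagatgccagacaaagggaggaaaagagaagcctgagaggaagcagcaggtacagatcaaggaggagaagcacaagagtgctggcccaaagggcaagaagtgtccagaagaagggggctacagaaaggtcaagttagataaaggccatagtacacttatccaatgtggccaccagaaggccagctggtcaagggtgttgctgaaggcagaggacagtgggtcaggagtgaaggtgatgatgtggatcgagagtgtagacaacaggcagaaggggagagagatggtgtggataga
Chromosome 17, shared: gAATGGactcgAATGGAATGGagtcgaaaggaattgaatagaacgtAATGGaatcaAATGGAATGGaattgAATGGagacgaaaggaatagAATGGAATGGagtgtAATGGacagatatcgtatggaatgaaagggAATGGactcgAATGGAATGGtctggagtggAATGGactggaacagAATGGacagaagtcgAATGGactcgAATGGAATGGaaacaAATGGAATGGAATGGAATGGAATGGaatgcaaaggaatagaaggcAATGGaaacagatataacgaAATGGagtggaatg
The first 4 sequences were alpha-satellite, the fifth came from a peak in which 58.4% of the 50-base words were single-copy, in an intron of a long non-coding RNA gene, and the sixth held 25 copies of AATGG.

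On chromosome 11 the ERCC6L2−/− list held 96 peaks and the control list 47, a ratio of 2.04. In the ERCC6L2−/− list 58 of the 96 overlapped no control peak by a single base, 60.4% (50.4 to 69.6), against 18.9% over all ERCC6L2−/− peaks of the genome. In the control list 9 of the 47 overlapped no ERCC6L2−/− peak, 19.1% (10.4 to 32.5), against 32.8% over all control peaks. The unshared share was thus above that of the whole list in the mutant cells and below it in the control cells, where the upper bound of the interval ended just short of the value of the whole list. The remaining 38 peaks of each list paired off with each other. The peaks covered 216 kb of the array in the ERCC6L2−/− list, 6.45% of it, and 106 kb or 3.17% in the control list. Chromosome 11 supplied 3.59% of all ERCC6L2−/− unique peaks and 0.27% of all control unique peaks. Its window held 1.12% of all ERCC6L2−/− peaks and 0.46% of all control peaks.

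**Figure D1:**
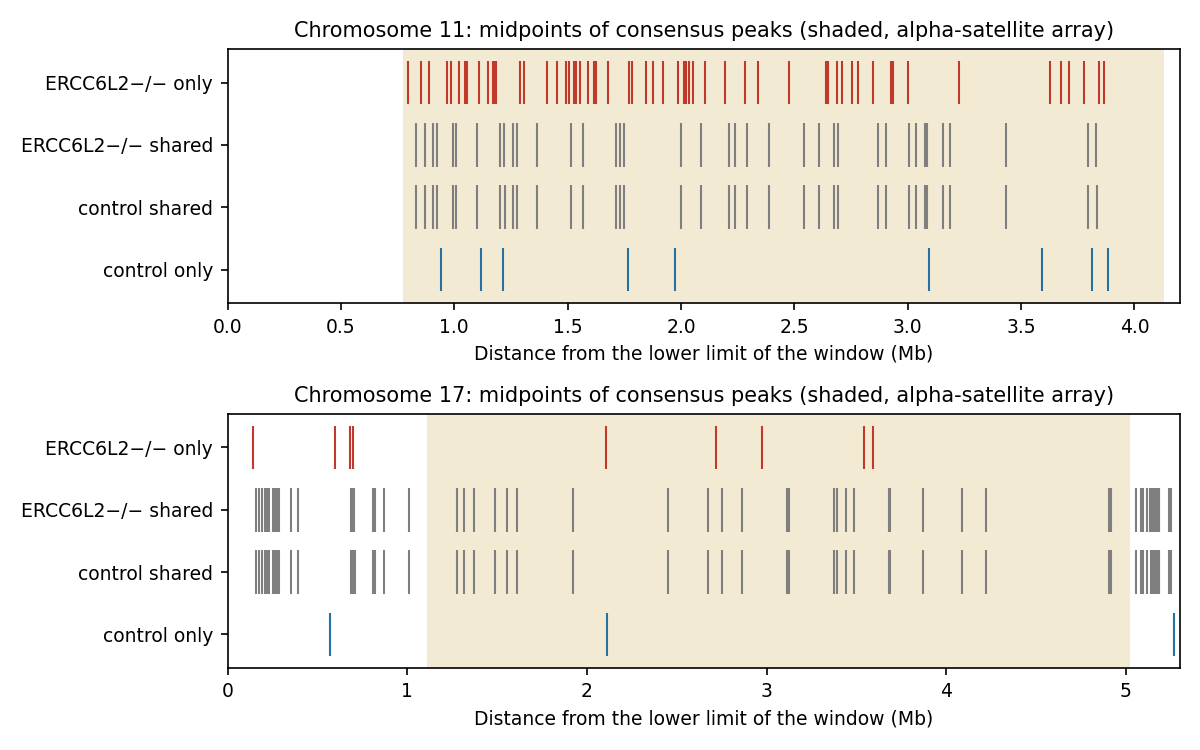
Each line is the midpoint of 1 consensus peak, placed by its distance in Mb from the lower limit of the window, in 4 rows by list and class; shading marks the alpha-satellite array. The 58 unique ERCC6L2−/− peaks of chromosome 11 lie within the array among the 38 shared ones, while on chromosome 17 shared peaks prevail and many crowd on both sides of the array.

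The unique ERCC6L2−/− peaks of chromosome 11 overlapped no control peak by definition, and their distances to the control peaks were measured. The closest lay 3573 bases from a control peak, the median was 21.3 kb and the farthest 92.4 kb away. None of the 58 lay within 1 kb of a control peak and 11 lay within 10 kb. The 9 unique control peaks lay between 2520 and 29569 bases from the nearest ERCC6L2−/− peak. Joined into chains wherever 2 neighbours were at most 100 kb apart, the 58 peaks formed 6 chains. The longest ran over 1055 kb (chr11:51587874-52642941) and held 27 unique ERCC6L2−/− peaks among 38 ERCC6L2−/− peaks, with 13 control peaks in the same span, of which 11 were shared and 2 unique.

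Both lists had fewer peaks toward the far end of the array. Counted in stretches of 0.5 Mb from the first base of the array, the ERCC6L2−/− list held 24, 20, 15, 14, 14 and 4 peaks and then 5 in the last, shorter stretch. The control list held 14, 7, 5, 6, 9, 2 and 4. Unique ERCC6L2−/− peaks numbered 13, 14, 11, 8, 6, 3 and 3, so the first 1.5 Mb held most of them. In each stretch the ERCC6L2−/− list had more peaks than the control list, with the smallest gap, 5 against 4, at the far end. The sequence changed along the array too. The median identity of 2000-base tiles to the sequence 1 repeat (850 bases) downstream was 84.9% in the first stretch, 95.4% in the next and 67.9% in the last. The median number of hg38 copies of the 50-base words in a tile went from 1662 to 1191. The part of repeat regularity and copy number in the peak counts was not tested.

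**Figure D2:**
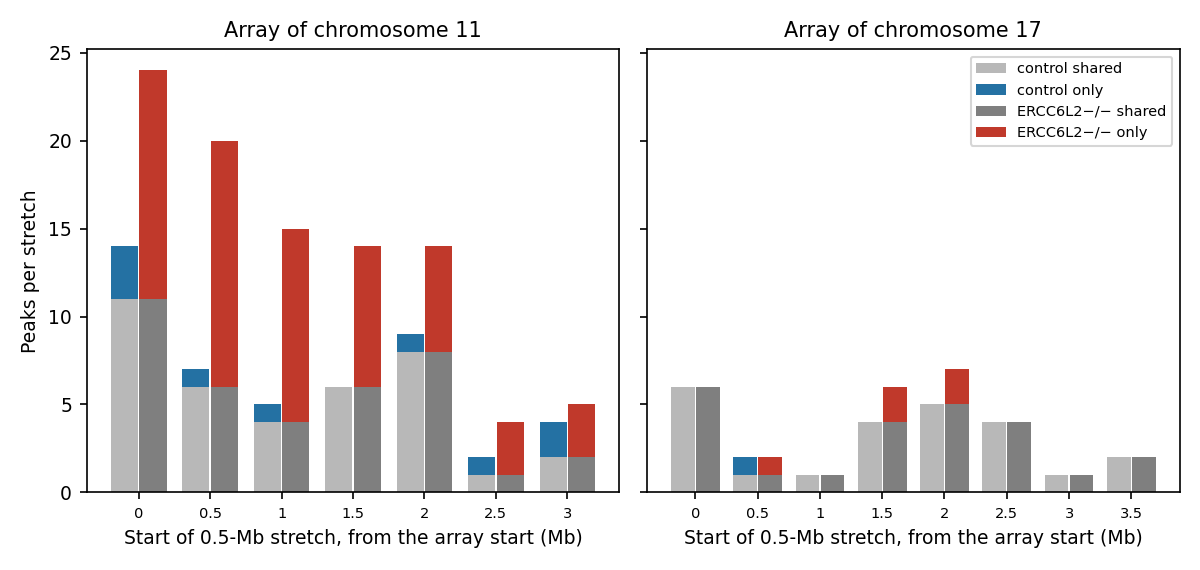
Bars give the number of peaks in each 0.5-Mb stretch of the 2 arrays, counted from the first base of the array (the last stretch is shorter), for control (left bar) and ERCC6L2−/− (right bar), divided into shared and unique. On chromosome 11 the ERCC6L2−/− bars exceed the control bars in every stretch, from 24 against 14 in the first to 5 against 4 in the last; on chromosome 17 they differ in 2 of the stretches.

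Peaks on chromosome 11 were wide for these lists. The median width was 2042 bases (359 to 5964) in the ERCC6L2−/− list, or 2.40 repeats of 850 bases, and 2127 bases (391 to 4151) in the control list. Shared ERCC6L2−/− peaks had a median of 2599.5 bases and unique ones 1776.5 bases. In the control list the values were 2194.5 and 1849 bases. For comparison, the median over the whole genome was 620.5 bases for unique and 750 bases for shared ERCC6L2−/− peaks. Elsewhere in alpha-satellite unique ERCC6L2−/− peaks had a median of 1301 bases and shared ones 1762.5 bases. In the control list these values were 1247 and 1684 bases. Widths above those of the whole ERCC6L2−/− list were thus not particular to chromosome 11. The widest peak of the chromosome 11 array, singled out after its value was seen, was a unique ERCC6L2−/− peak of 5964 bases (chr11:52082402-52088365). It spanned 7.02 repeats and held 13 CENP-B boxes.

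Shared peaks scored higher than unique ones. Scores were written as infinite above 310.6, and this ceiling was the median of each whole list. On chromosome 11, 23 of 38 shared ERCC6L2−/− peaks stood at the ceiling but 11 of 58 unique ones, or 19.0%, against 30.8% of unique ERCC6L2−/− peaks over the genome and 37.2% of those in other alpha-satellite. The 23 shared peaks were 60.5%, against 68.9% of shared ERCC6L2−/− peaks over the genome. In the control list 20 of 38 shared and 1 of 9 unique peaks stood there, or 52.6% and 11.1%. Over the genome these control shares were 84.1% and 45.4%, and in other alpha-satellite 57.5% and 16.5%. Shared peaks thus stood at the ceiling more often than unique ones in the whole lists too. The median score of unique ERCC6L2−/− peaks was 186. The best-scoring unique ERCC6L2−/− peak, the widest of the 11 at the ceiling, covered 3001 bases (chr11:51445636-51448636), held 7 boxes and lay 25.1 kb from the nearest control peak. The single unique control peak at the ceiling was only 391 bases wide (chr11:54182819-54183209) and held 1 box. Among peaks at the ceiling, 34 ERCC6L2−/− peaks stood against 21 control peaks, and 11 of the 34 were unique against 1 of the 21. These are 32.4% and 4.8%, against 9.41% of all 5280 ERCC6L2−/− peaks and 20.8% of all 7343 control peaks at the ceiling over the genome.

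**Figure D3:**
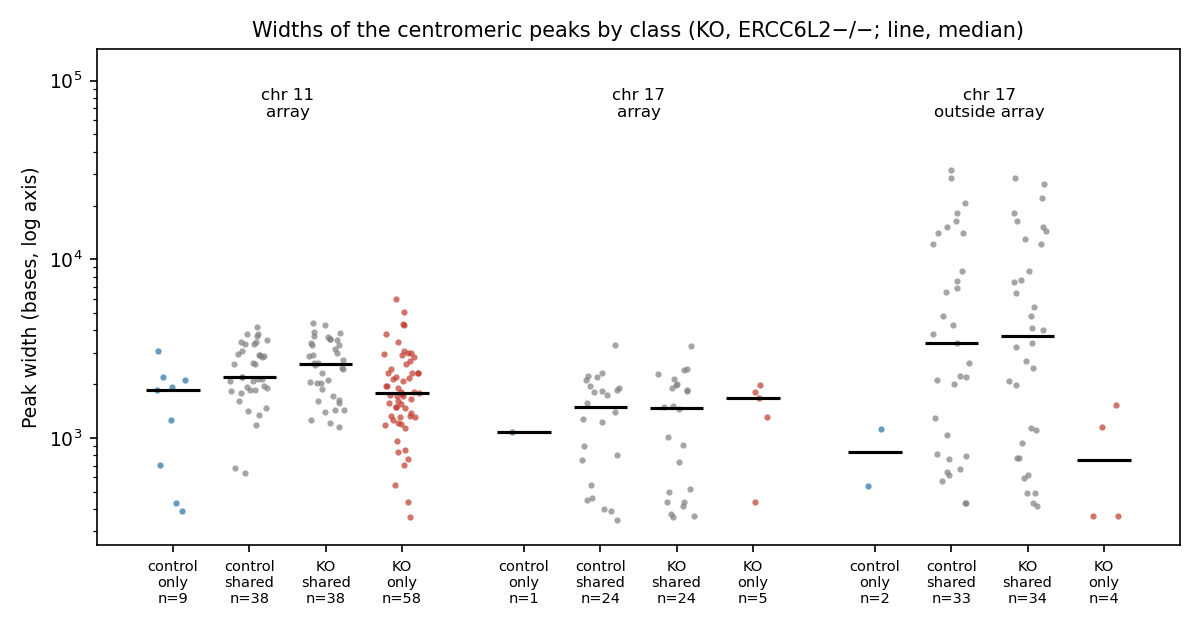
Each point is the width in bases of 1 peak on a log axis, by region, list and class (KO, ERCC6L2−/−); black lines are medians. In the chromosome 11 array the 58 unique ERCC6L2−/− peaks have a median of 1776.5 bases against 2599.5 for the 38 shared ones, and the widest peaks, of 31665 bases in the control and 28534 in the ERCC6L2−/− list, lie outside the array of chromosome 17.

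At the 38 shared places of chromosome 11 each list had exactly 1 peak, so their widths were compared directly. The ERCC6L2−/− peak was the wider one at 23 places and the control peak at 15. The median difference was 70.5 bases and the median ratio 1.03, so shared peaks were of similar width in both lists. Single places differed more. The ratio of ERCC6L2−/− to control width ran from 0.34 to 3.85, exceeding 1.5 at 6 places and its inverse at 2. The most unequal place, singled out after its values were seen, had an ERCC6L2−/− peak of 2438 bases (chr11:52587854-52590291) and a control peak of 633 bases. The median overlap of a pair was 77.0% of their joint length. In the array of chromosome 17 it was 90.6% over 24 pairs and outside the array 94.7% over 30 pairs, so peak borders differed more between the lists on chromosome 11.

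**Figure D4:**
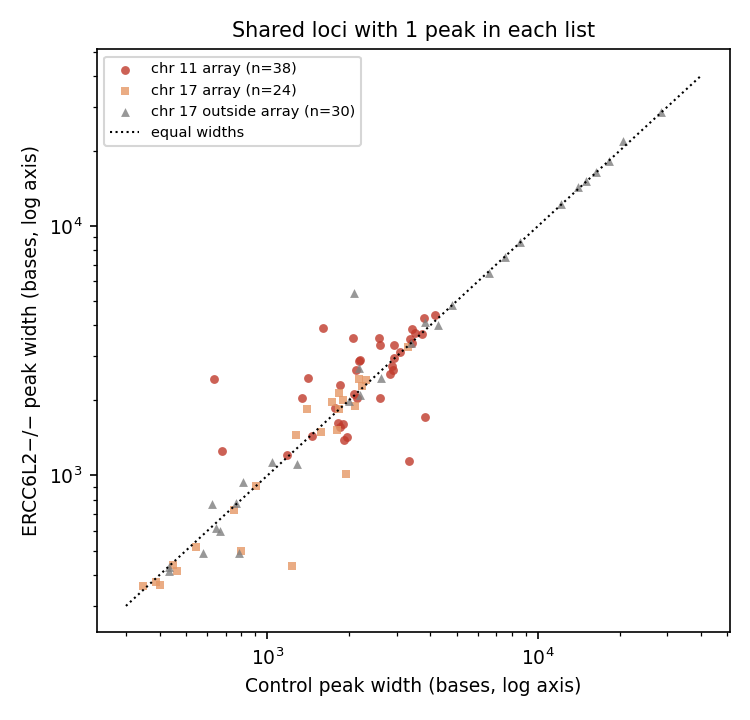
Each point is a shared place with 1 peak in each list, its control width on the x axis and its ERCC6L2−/− width on the y axis (bases, log axes); the dotted line marks equal widths. Places in the chromosome 11 array scatter from 0.34 to 3.85 times the control width, while the places outside the chromosome 17 array range from 0.62 to 2.58 times, with a median ratio of 1.00.

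On chromosome 17 the lists were much more alike. The window held 67 ERCC6L2−/− and 60 control peaks, with 9 unique ERCC6L2−/− peaks, 13.4% (7.23 to 23.6), and 3 unique control peaks, 5.0% (1.71 to 13.7). The control share lay below the 32.8% of the whole control list. The interval of the ERCC6L2−/− share included the 18.9% of the whole ERCC6L2−/− list. Within the array 5 of 29 ERCC6L2−/− peaks were unique, 17.2% (7.60 to 34.6), and 1 of 25 control peaks, 4.0% (0.71 to 19.5). The peaks covered 39.8 kb of the array in ERCC6L2−/− cells, 1.02% of it, and 34.8 kb or 0.89% in control cells. Per Mb of array there were 7.44 ERCC6L2−/− peaks on chromosome 17 against 28.7 on chromosome 11, and 6.41 control peaks against 14.0.

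The 5 unique ERCC6L2−/− peaks in the array of chromosome 17 were between 436 and 1985 bases wide, and each held a CENP-B box. Of the 5, 2 stood at the score ceiling. The wider of these covered 1305 bases (chr17:23804291-23805595), with 3 boxes. It lay 5384 bases from the unique control peak of the array (chr17:23810980-23812053, score 78.7). The other 4 lay between 35.1 and 105 kb from a control peak. The largest chain of unique ERCC6L2−/− peaks held only 3 peaks over 102 kb (chr17:22298992-22401051), outside the array and without a CENP-B box. At the 24 shared places of the array the control peak was the wider one at 14 and the ERCC6L2−/− peak at 10, with a median ratio of 0.98.

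Beside the array of chromosome 17 lay the widest peaks, in blocks of a 5-base repeat. On the short-arm side 10 peaks of each list lay between 21851711 and 21991825, and covered 127 kb in the ERCC6L2−/− list and 125 kb in the control list. On the long-arm side 9 peaks of each list, from 26782850 to 26967058, covered 91.3 and 94.5 kb. The widest peak of the ERCC6L2−/− list there was 28534 bases (chr17:21879151-21907684) and the widest of the control list 31665 bases. Of these 38 peaks, 0 of 19 in the ERCC6L2−/− list and 1 of 19 in the control list were unique. The whole lists had 18.9% and 32.8%. The unique control peak (chr17:26965934-26967058) was AT-rich. Its GC content was 26.7%, against a median of 38.7% for the control peaks in the 5-base repeat. At 35 of the 38 the score stood at the ceiling. In total the flanks of the array gave 242 kb in ERCC6L2−/− and 237 kb in control cells, a ratio of 1.02. The bases called beside the array of chromosome 17 were thus nearly as many in both lists, and the difference in covered bases over both windows, 119 kb, came mainly from the 110 kb of chromosome 11.

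No peak of the chromosome 11 window overlapped a gene of GENCODE release 44. That release has 4 genes in the window but 0 in the array, where all these peaks lay, so the absence follows from the annotation. On chromosome 17, 3 peaks of each list did, all of them long non-coding RNA genes outside the array, and no peak overlapped a protein-coding gene. This window has 34 genes, of which only 1 is protein-coding, and its array has 0. UBBP4 and FLJ36000 carried a shared peak each. In FLJ36000 the ERCC6L2−/− peak was 5394 bases (chr17:22402933-22408326) and the control peak 2095 bases, both over an exon. A unique ERCC6L2−/− peak of 363 bases lay in an intron of FAM27E5 (chr17:22298992-22299354). The unique control peak printed above lay in an intron of ENSG00000264956 (chr17:22271948-22272484) and had the highest score, 271, of the 3 unique control peaks of the window.

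The CENP-B box, counted as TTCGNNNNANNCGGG on either strand, was present in almost all peaks of the arrays. On chromosome 11 it was found in 57 of 58 unique ERCC6L2−/− peaks, 98.3% (90.9 to 99.7), in all 38 shared peaks of both lists and in all 9 unique control peaks. The peak without a box was short, 439 bases (chr11:54143287-54143725). In the array of chromosome 17, 27 of 29 ERCC6L2−/− and 23 of 25 control peaks held one. Outside that array it was found in 4 of 38 and 4 of 35 peaks. These shares are those of the arrays themselves. All 1656 tiles of 2000 bases in the chromosome 11 array held a box, and 99.0% of 1929 tiles in that of chromosome 17.

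The density and the variants of the box were similar in all classes on chromosome 11. The chromosome 11 array held 6814 boxes, 2.04 per kb, of which 6812 were on the plus strand. The commonest distances between neighbours were 338 bases (2548 times) and 512 bases (2449 times), which together make the 850-base repeat. Unique ERCC6L2−/− peaks had a median of 2.28 boxes per kb, shared ERCC6L2−/− peaks 2.21, shared control peaks 2.16 and unique control peaks 2.29. A pair of 17-base boxes made up nearly all of them and are printed because they are the sites CENP-B can bind.
Box 1: TTTCGTTGGAAACGGGT
Box 2: TTTCGTTGGAAACGGGA
On chromosome 11, box 1 was 50.04% of the array's boxes and 124 of the 253 boxes (49.0%) in unique ERCC6L2−/− peaks, and box 2 was 46.0% and 125 of 253 (49.4%). In shared ERCC6L2−/− peaks they were 105 and 98 of 209, and in unique control peaks 14 and 12 of 29. Chromosome 17 had a different mixture. Box 2 was 57.6% of its 10380 boxes, and the next 2 variants were as follows.
Box 3: CTTCGTTCGAAACGGGT
Box 4: ATTCGTTGGAAACGGGA
Box 3 was 25.7% and box 4 12.5% of the boxes of the chromosome 17 array. In shared ERCC6L2−/− peaks of the chromosome 17 window box 2 was 58 of 97, box 3 21 of 97 and box 4 15 of 97. In the unique ones the counts were 14, 6 and 2 of 22. Box 3 was 0.54% of the chromosome 11 array and was in no peak there.

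Within the repeat unit of chromosome 11, peak midpoints fell in the long interval between boxes (512 bases, within 8) in 34 of 58 unique ERCC6L2−/− peaks, 22 of 38 shared ERCC6L2−/− peaks, 22 of 38 shared control peaks and 4 of 9 unique control peaks. Of all bases of the array, 45.0% lay in that interval. The median distance from a midpoint to the nearest box was 116.5 bases in unique ERCC6L2−/− peaks and 158.5 bases in shared ones, against 123 bases over all bases of the array. As the peaks spanned more than 2 repeats in most cases, a midpoint places the signal within a repeat only loosely.

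The repeats limit how firmly a peak can be placed. The aligner may put a read from one copy at another, and the handling of reads that match several places is not given in the sources used here. For each peak on chromosome 11 the copies in hg38 of its 50-base words were counted, and the median was 1790.5 copies in unique ERCC6L2−/− peaks, 1883 in shared ERCC6L2−/− peaks, 1917.75 in shared control peaks and 1643 in unique control peaks. Tiles of the array that held no peak of either list had a median of 1417 copies (quartiles 1198 and 1668). Tiles of the same width had 1668 (1416 and 1949) where an ERCC6L2−/− peak overlapped and 1613 (1367 and 1973.5) where a control peak did. About 71% of the words of a peak were found on chromosome 11 alone (median 71.3% in unique and in shared ERCC6L2−/− peaks), and in no peak were more than 20.3% of the words single-copy. Peaks in the array of chromosome 17 had a median of 544 copies in the ERCC6L2−/− list and 465 in the control list, with 95.7% of words on chromosome 17 alone in both. The 5-base repeat was different, with a median of 1 copy and 97.3% of words single-copy on the short-arm side. Tiles with a called peak on chromosome 11 thus had a higher median number of copies than tiles without one, with overlapping quartiles. In the 5-base repeat beside the array of chromosome 17 most words occurred once in hg38. Only exact copies were counted, and this DNA is itself a tandem repeat with differing copies. Its single-copy words therefore do not show that reads there are placed firmly. The part of copy number in the difference between the lists was not tested.

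Tiles of the chromosome 11 array with a peak had a higher median identity to the next repeat than tiles without one, but the values overlapped widely. Identity was taken without gaps at exactly 850 bases, so an inserted or lost base lowers it. The identity of a peak to the sequence 850 bases downstream had a median of 97.9% in the ERCC6L2−/− list and 95.0% in the control list. Tiles of 2000 bases had a median of 77.2% over the array, 90.6% where an ERCC6L2−/− peak overlapped, 88.2% where a control peak did and 75.5% where neither did. The lower and upper quartiles were 68.7 and 98.4% with an ERCC6L2−/− peak, 68.7 and 98.3% with a control peak, and 65.0 and 97.7% with neither. The GC content had a median of 40.1% both in ERCC6L2−/− peaks and in tiles of the array.

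In alpha-satellite of all other chromosomes 521 of 1143 ERCC6L2−/− peaks were unique, 45.6% (42.7 to 48.5), and 115 of 736 control peaks, 15.6% (13.2 to 18.4). The interval of chromosome 11, 50.4 to 69.6, lay above the first of these, and that of the chromosome 17 array, 7.60 to 34.6, lay below it. Among the 14 chromosomes with at least 20 ERCC6L2−/− peaks in alpha-satellite, chromosome 11 ranked 2 and the array of chromosome 17 ranked 14 by the unique share. Chromosome 11 was not separate from its neighbours in this order. Chromosome 18 (17 of 24, 70.8%), chromosome 5 (70 of 117, 59.8%), chromosome 19 (69 of 122, 56.6%) and chromosome 1 (74 of 131, 56.5%) had overlapping intervals. Chromosome 10 (23 of 120, 19.2%) was next to chromosome 17. These are counts of peaks in merged lists, and peaks of 1 array share sequence, so no test was made of the differences between chromosomes.

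The 2 other chromosomes with repeats of this family were counted over all their alpha-satellite, without assigning peaks to one family of repeats. Chromosome 1 had 131 ERCC6L2−/− and 63 control peaks, a ratio of 2.08, beside the 2.04 of chromosome 11. Such a ratio was not particular to these 2 chromosomes. It was 2.67 on chromosome 18, 2.18 on chromosome 19 and 2.13 on chromosome 5. The lowest among the 14 ranked chromosomes was 1.07, on chromosome 20. The array of chromosome 17 had a ratio of 1.16. Chromosome X had no peak in its alpha-satellite of 4.64 Mb in either list. The intervals of the unique share did not overlap between chromosome 1 (47.9 to 64.7) and the array of chromosome 17, and did between chromosomes 1 and 11.

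**Figure D5:**
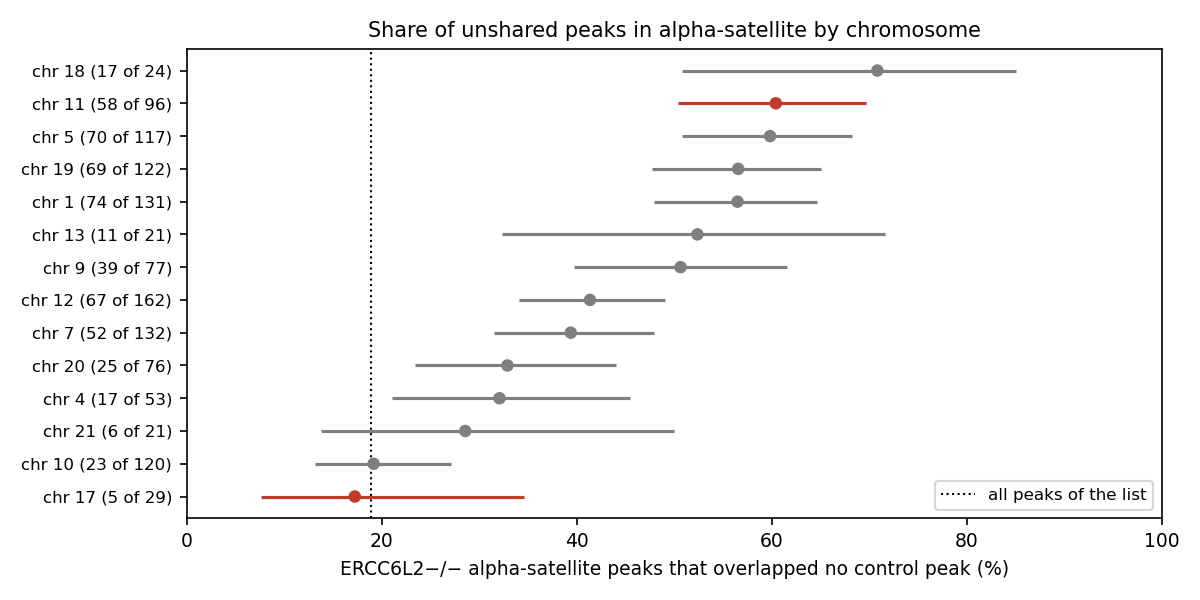
Points give the percentage of ERCC6L2−/− peaks in alpha-satellite that overlapped no control peak, for each chromosome with at least 20 such peaks, with the counts beside the names and 95% Wilson intervals as lines; the dotted line is the 18.9% of the whole list. Chromosome 11 stands at 60.4% among chromosomes 18, 5, 19 and 1, and chromosome 17, at 17.2%, is the lowest.

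On chromosome 11 the first and last peaks lay 798 and 317 kb inside the limits, and the nearest peaks outside were 1011 kb or more away. On chromosome 17 a shared peak lay only 4.95 kb outside the lower limit, at 21694535, and a unique control peak was the last inside the upper limit, 33.5 kb from it.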

How the data were processed

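Nascent DNA of 3 control and 3 ERCC6L2−/− U2OS samples was analysed from 4 deposited peak lists. As the authors describe, reads were trimmed, aligned with Bowtie2 to hg38, cleared of duplicates with Picard and called with MACS2 per sample. MSPC merged the replicates into a consensus list, and BEDtools removed peaks of the other genotype to give unique lists. Thresholds are not given in the sources used here. In the consensus lists the authors deposited a score per peak, the −log10 of its p-value, infinite above 310.6. The lists hold no counts, so depth is unknown.

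Peaks were classed as shared by an overlap of 1 base. The classes matched the deposited unique lists for all 1614 ERCC6L2−/− and 3371 control peaks. Alpha-satellite was found in hg38 as 1000-base windows with at least 50% identity 166 to 176 bases downstream and less at 120 to 130 bases, joined over 10 kb, which gave 166 runs of 73.0 Mb. Copies of 50-base words were counted on both strands in 194 contigs. A 5-base repeat had at least 50% identity 5 bases downstream. Named peaks had the highest score per chromosome and class (shared ones from the ERCC6L2−/− list), ties broken by width, with the largest chain of unique peaks per chromosome. Other peaks and the non-coding genes were named after their values were seen. Wilson intervals came from SciPy 1.17.1 and sequences from pysam 0.24.0. The helper functions were tested on simulated data. The windows, lists and features were chosen with earlier results of these data known. No test of genotypes was made. Alternatives were the overlap rule, the score, alpha-satellite alone, narrower windows and other box definitions.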

Additional observations from a re-analysis of the deposited data

How the results depend on the processing

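No paired analysis was possible because each list merges the 3 replicates of a genotype, so replicates could not be left out in turn either. The excess of covered bases in ERCC6L2−/− cells kept its sign under all 3 alternatives. At a reciprocal overlap of 50% the unique control peaks went from 12 to 20, or from 11.2% to 18.7%. The unique ERCC6L2−/− peaks went from 67 to 76, or from 41.1% to 46.6%. Over the genome, by the 1-base rule, 18.9% of ERCC6L2−/− and 32.8% of control peaks were unique. Among peaks at the score ceiling there were 14 unique ERCC6L2−/− peaks (16.7% instead of 41.1%) and 1 unique control peak (1.43%). Over the genome the shares at the ceiling were 9.41% and 20.8%. The excess of covered bases at the ceiling was 33223 instead of 119368. In alpha-satellite alone the unique ERCC6L2−/− share was 50.4%. Counting peaks within 1 kb as shared changed no count, and windows narrowed by 250 kb gave 66 and 11 unique peaks instead of 67 and 12.

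The share of peaks with a CENP-B box over both windows was 92.5% in unique ERCC6L2−/−, 83.3% in unique control, 66.7% in shared ERCC6L2−/− and 67.4% in shared control peaks. It depended on where the box was looked for. In the central 300 bases it was 58.2%, 50%, 29.2% and 38.95%. In alpha-satellite alone, over the whole peak, it was 98.4%, 100%, 96.8% and 96.8%. The classes differed in where they lay. Of the 96 shared ERCC6L2−/− peaks, 20 lay on the short-arm and 14 on the long-arm side of the chromosome 17 array. Only 4 of the 67 unique ones lay there, and few peaks there held a box. The central share was not computed in alpha-satellite alone, so the central values do not compare the classes in like sequence. With up to 2 mismatches the share over both windows was 97.01% in unique and 93.8% in shared ERCC6L2−/− peaks. It was 83.3% in unique and 93.7% in shared control peaks. So loose a pattern can occur by chance in wide peaks of any sequence, so these values do not count CENP-B boxes. The 1 unique control peak at the ceiling held a box (100%). Read depth and the placing of reads in repeats limit these counts and could not be examined in the lists.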
